A study of Mus musculus with 7 samples.

Results

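The genes described here are 39 genes known from microglia, of 39017 gene IDs counted in mouse hippocampus. They were chosen by name, with earlier results of these data known. All 39 had a row in the count table (matched by Ensembl ID to GENCODE M21 symbols), and all 39 passed the filter on low counts. The study used translating ribosome affinity purification (TRAP), in which a ribosomal protein L10 fused to EGFP is made where Cre recombinase has acted, so that these ribosomes and the RNA on them can be captured through the tag. The mice carried GAD2 cre together with L10-EGFP, so Cre acts in cells that use Gad2, the gene of a GABA-making enzyme of GABAergic neurons. Each TRAP sample pooled 2 hippocampi, and the sources used here give neither age nor sex of the mice. The bound group holds 3 libraries of pulled-down RNA, and the unbound group holds 4 libraries whose titles form an UBS pair (unbound replicates 1 and 2) and an UBGS pair (replicates 3 and 4). The labels name no treatment other than bound and unbound, although the bound titles contain "ctrl", and they do not say whether both groups came from the same tissue.

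Microglia are the resident macrophages of the brain. They depend on signalling through the Csf1r receptor, survey the tissue with purinergic and chemokine receptors, tag material with complement C1q and digest it in lysosomes. Genes of surveying cells are commonly called homeostatic, and a chosen part of the genes of uptake, lysosome and innate sensing is called phagocytic here. Microglia are not GABAergic, and Gad2 is not known as one of their genes.

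Library totals ranged from 38690380 to 51953811 counts. The pull-down was checked on 13 genes of GABAergic neurons, all higher in the bound libraries, with summed levels of 6049 to 7940.0 CPM in bound and 582 to 731 CPM in unbound libraries. Gad2 itself was higher by 2.32 on the log2 scale, and all 10 genes of excitatory neurons were lower. Levels are in CPM, read counts scaled to a common library size by TMM. Fold changes are on the log2 scale, positive where the bound libraries were higher, with their standard error (SE). The labels do not say that the libraries came from separate animals, so p-values rest on the spread among libraries, which may be technical. Bulk libraries cannot tell more cells of a type from more RNA per cell. Bound replicate 2 stood apart for the microglia genes, and the main results are given with and without it.

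Of the 39 microglia genes, 36 were higher in bound libraries and none was lower (edgeR quasi-likelihood test, adjusted p under 0.05). Among all 19563 genes tested, 31.0% were called higher (6072 genes) and 30.7% lower (6004), or 61.7% in either direction. With library totals in place of TMM scaling, 9284 genes were called higher and 3704 lower, and 37 of the 39 microglia genes were called higher. Mitochondrial genes held 28.5 to 32.9% of the counts in unbound libraries and 0.087 to 0.12% in bound libraries. The gene Gm42418 held 3.95 to 6.02% in unbound and 11.3 to 15.4% in bound libraries. With totals that leave both out, 5999 genes were called higher and 6061 lower, and 36 of the 39 microglia genes were called higher. The median log2 fold change of the 39 genes was 1.81, against −0.01 over all genes tested. In 35 of the 39 the rise was at least 1 on the log2 scale, a size reached by 14.6% of all genes tested. The 3 bound libraries lay above all 4 unbound libraries for 32 of the 39 genes, as they did for 31.7% of all genes tested, and below them for none, against 31.6%. Genes without a call were Ptprc, Hpgds and Tlr2.

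**Figure D1:**
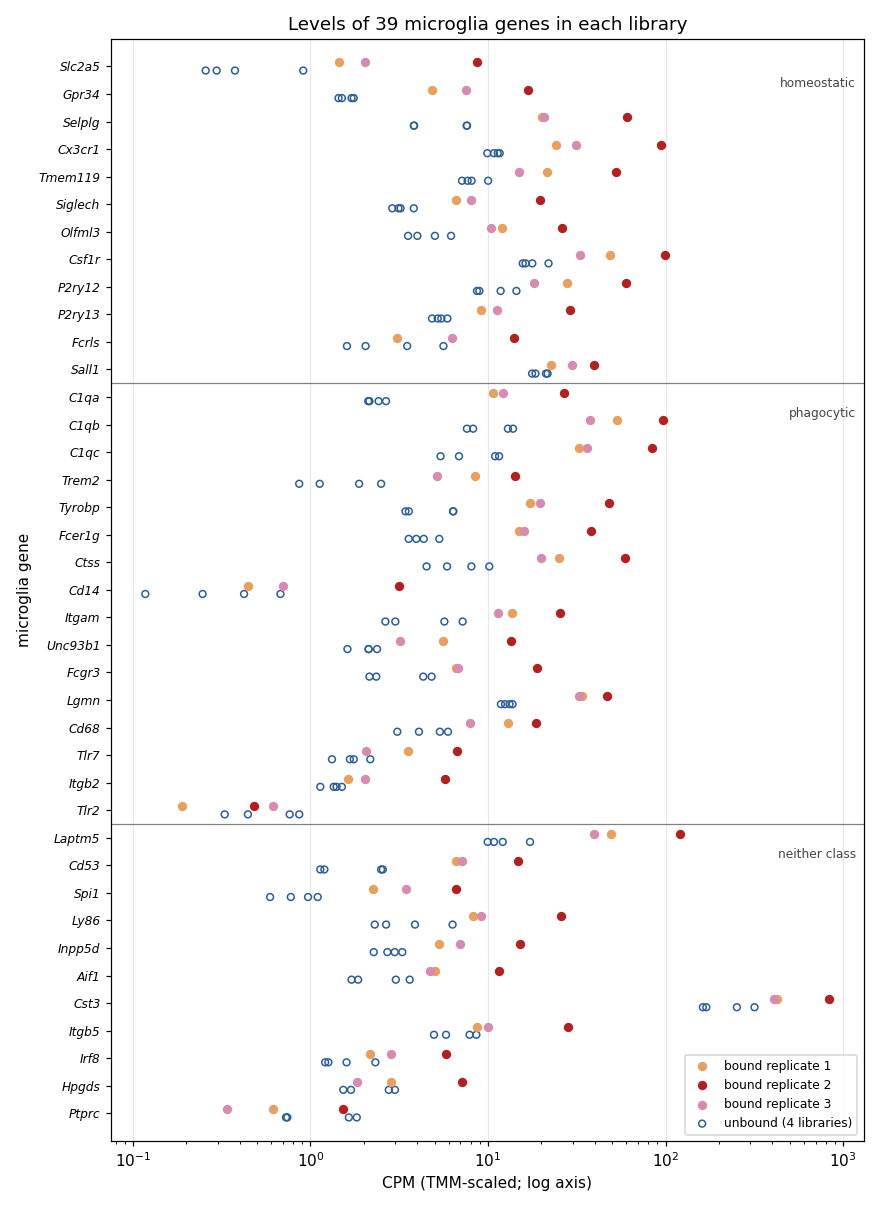
Level of each of the 39 microglia genes (rows) in CPM on a log axis, with 3 bound libraries as filled points and 4 unbound libraries as open points. Bound replicate 2 is the highest bound library for every gene but Tlr2.

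Of 7 genes of microglial signalling, 6 rose. Csf1r, the receptor for colony-stimulating factor 1 and interleukin 34, stood at 48.5, 99.1 and 33.1 CPM in the bound libraries, against 21.9, 17.8, 15.7 and 16.3 CPM in the unbound libraries. All bound libraries were above all unbound libraries (log2 1.75, SE 0.31, edgeR adjusted p = 0.00076). Csf1r lies on chromosome 18 from 61100598 to 61132149 (mm10), and 15.1% of its exon length is also exon of Hmgxb3 on the other strand, so some of its reads are uncertain. Tyrobp, an adaptor that carries signals of Trem2 and other receptors, stood at 17.3, 48.3 and 19.6 CPM in the bound libraries, against 6.38, 6.36, 3.43 and 3.58 CPM in the unbound libraries. Its groups did not overlap (log2 2.53, SE 0.37, edgeR adjusted p = 0.00021). Trem2, a lipid-sensing receptor that pairs with Tyrobp, stood at 8.48, 14.2 and 5.15 CPM in the bound libraries, against 1.88, 2.5, 1.13 and 0.865 CPM in the unbound libraries. The lowest bound value, in replicate 3, was above the highest unbound value, in replicate 2 (log2 2.55, SE 0.40, edgeR adjusted p = 0.00021). Fcgr3, a receptor for antibody-coated material, stood at 6.61, 18.8 and 6.74 CPM in the bound libraries, against 4.32, 4.82, 2.35 and 2.15 CPM in the unbound libraries. Bound replicates 1 and 3 lay close together there, and the groups did not overlap (log2 1.66, SE 0.40, edgeR adjusted p = 0.0042). Fcgr3 has close relatives in the genome, and the sources used here do not say how reads matching several places were counted.

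The remaining 3 signalling genes included the one without a call. Fcer1g, the signalling chain shared by Fc receptors, was 5.35-fold higher (log2 2.42, SE 0.30, edgeR adjusted p = 4.2e-05). Inpp5d, a lipid phosphatase that limits such signalling, was 3.25-fold higher (log2 1.70, SE 0.32, edgeR adjusted p = 0.00084). Ptprc, the CD45 phosphatase of blood-derived cells, stood at 0.616, 1.52 and 0.34 CPM in the bound libraries, against 1.65, 1.82, 0.728 and 0.741 CPM in the unbound libraries. Its bound and unbound values overlapped and no call was made (log2 −0.56, SE 0.56, edgeR adjusted p = 0.40). With 18313 nucleotides Ptprc has the longest merged exons of the 39 genes.

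All 10 homeostatic surface and secreted genes rose. Cx3cr1, the receptor for the neuronal chemokine fractalkine, stood at 24.3, 93.9 and 31.2 CPM in the bound libraries, against 11.6, 9.91, 11.3 and 10.8 CPM in the unbound libraries. Unbound values differed little, and bound replicate 2 was 3.39 times the mean of the other bound libraries (log2 2.19, SE 0.42, edgeR adjusted p = 0.0016). P2ry12, an ADP receptor that guides microglial processes, stood at 28, 59.6 and 18.2 CPM in the bound libraries, against 14.5, 11.8, 8.67 and 8.94 CPM in the unbound libraries. Groups did not overlap for P2ry12 (log2 1.69, SE 0.35, edgeR adjusted p = 0.0020). Tmem119, a membrane protein used as a microglial marker, stood at 21.4, 52.9 and 14.9 CPM in the bound libraries, against 10.02, 8.09, 7.68 and 7.14 CPM in the unbound libraries. Its lowest bound value, in replicate 3, was above its highest unbound value, in replicate 1 (log2 1.86, SE 0.36, edgeR adjusted p = 0.0013). Slc2a5, a fructose transporter that marks microglia in the brain, showed the largest rise of the 39 genes and stood at 1.46, 8.65 and 2.04 CPM in the bound libraries, against 0.911, 0.257, 0.376 and 0.296 CPM in the unbound libraries. Its level was low and its SE the second largest of the 39 (log2 3.16, SE 0.65, edgeR adjusted p = 0.0014). P2ry13, another ADP receptor, was 3.07-fold higher. It lies inside an intron of Med12l, on the opposite strand. Gpr34, a lysophosphatidylserine receptor that lies in an intron of Cask, was 6.05-fold higher. Selplg, the P-selectin ligand, was 5.95-fold higher, Siglech, a sialic acid-binding lectin, 3.51-fold and Olfml3, a secreted protein, 3.44-fold. The call for Fcrls, an Fc receptor-like protein of mouse microglia, was the closest to the threshold (log2 1.29, SE 0.50, edgeR adjusted p = 0.045). There bound replicate 1, at 3.08 CPM, lay inside the unbound range of 1.61 to 5.61 CPM.

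All 3 chains of complement C1q rose. C1qa, C1qc and C1qb encode the subunits that assemble into C1q and lie next to each other on chromosome 4 (mm10), C1qb from 136880129 to 136886187, C1qc from 136889804 to 136893065 and C1qa from 136895917 to 136898803, all on the minus strand. C1qa stood at 10.7, 27 and 12.1 CPM in the bound libraries, against 2.12, 2.66, 2.42 and 2.15 CPM in the unbound libraries. C1qb stood at 53.5, 97.2 and 37.7 CPM in the bound libraries, against 13.8, 12.9, 8.25 and 7.61 CPM in the unbound libraries. C1qc stood at 32.3, 83.4 and 36.1 CPM in the bound libraries, against 11.5, 11, 5.4 and 6.87 CPM in the unbound libraries. In each chain the groups were apart, with the lowest bound library at over 2-fold the highest unbound library. The log2 fold changes were 2.82 (SE 0.30), 2.56 (SE 0.32) and 2.55 (SE 0.37) for C1qa, C1qb and C1qc, with edgeR adjusted p = 1.1e-05, 7.0e-05 and 0.00025.

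Promoters of the microglia genes were searched for the binding letters of PU.1, the myeloid factor encoded by Spi1, since most of the genes moved together. RefSeq promoter windows (GRCm38.p6) were found for 28 of the 39 genes, and the 250 bases before each start were searched on both strands. The PU box GAGGAAGT occurred in 3 of these 28 genes (10.7%), against 2.79% of 27025 genes with a window. The composite of an ETS and an IRF element, GGAA followed by 2 free bases and GAAA, occurred in none of the 28, against 2.68% of all genes. Of 12 homeostatic genes 8 had a window, none with a PU box, and of 16 phagocytic genes 10 had one, C1qc alone with a PU box. The stretches of 80 bases below show the 3 matches, for C1qc, Inpp5d and Hpgds, and for comparison the bases just before the start of C1qb, which held no match. The Hpgds stretch precedes a RefSeq start but lies inside the gene as given in GENCODE M21 (65117293 to 65144908, minus strand). Capitals mark the PU box, which is on the opposite strand in C1qc and therefore reads ACTTCCTC there. The stretches are chr4:136893066-136893145 (minus strand), chr1:87620232-87620311 (plus strand), chr6:65144736-65144815 (minus strand) and chr4:136886201-136886280 (minus strand), each written 5′ to 3′ along its gene.
C1qc: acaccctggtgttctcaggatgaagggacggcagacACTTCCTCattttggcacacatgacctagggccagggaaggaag
Inpp5d: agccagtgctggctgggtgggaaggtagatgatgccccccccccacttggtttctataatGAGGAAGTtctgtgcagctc
Hpgds: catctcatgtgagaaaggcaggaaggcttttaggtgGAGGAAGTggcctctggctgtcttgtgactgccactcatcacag
C1qb: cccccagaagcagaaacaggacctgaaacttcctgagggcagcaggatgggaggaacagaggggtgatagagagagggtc
A match is a description of letters and not of a bound site. A rise was called for C1qc and Inpp5d with a match as well as for C1qb without an exact one. The C1qb stretch holds acttcctg, which differs from ACTTCCTC in its last letter only. Hpgds, which holds a match, had no call in the main test, though some alternative settings gave one.

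All 3 integrin genes rose, and the calls for Itgb2 and Itgb5 were lost without bound replicate 2, at log2 0.44 (edgeR adjusted p = 0.23) and 0.45 (edgeR adjusted p = 0.11). Itgam, the CD11b chain of complement receptor 3, stood at 13.7, 25.3 and 11.5 CPM in the bound libraries, against 7.2, 5.68, 3.01 and 2.64 CPM in the unbound libraries. Both groups varied, with the UBS pair above the UBGS pair, yet they did not overlap (log2 1.87, SE 0.36, edgeR adjusted p = 0.00092). In GENCODE M21, 68.7% of the Itgam exon length is shared with Gm49368 on the same strand, an ID that is not in the count table. Itgb2, the CD18 partner chain, was 2.33-fold higher (log2 1.22, SE 0.41, edgeR adjusted p = 0.023). Itgb5, a beta chain that pairs with the alpha V integrin and is made by other brain cells too, stood at 8.63, 28.3 and 9.96 CPM in the bound libraries, against 7.87, 8.6, 5.8 and 4.96 CPM in the unbound libraries. The lowest bound value, in replicate 1, was barely above the highest unbound value, in replicate 2 (log2 1.20, SE 0.38, edgeR adjusted p = 0.017).

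All 6 lysosomal and protease genes rose. Cd68, a lysosomal membrane protein of macrophages, stood at 13, 18.5 and 7.92 CPM in the bound libraries, against 4.08, 3.09, 5.36 and 5.95 CPM in the unbound libraries. The UBGS pair was the higher unbound pair for Cd68, and the groups did not overlap (log2 1.51, SE 0.29, edgeR adjusted p = 0.00088). Ctss, the protease cathepsin S, stood at 25, 59.5 and 19.9 CPM in the bound libraries, against 10.2, 8.06, 4.51 and 5.88 CPM in the unbound libraries. Each bound library was near or above 2-fold the highest unbound library (log2 2.29, SE 0.39, edgeR adjusted p = 0.00057). Lgmn, the protease legumain, had the smallest SE of the 39 genes and was 2.94-fold higher (log2 1.56, SE 0.13, edgeR adjusted p = 2.2e-06). Laptm5, a lysosomal membrane protein of blood-lineage cells, was 5.59-fold higher. Unc93b1, which carries nucleic-acid-sensing Toll-like receptors to endosomes, was 3.6-fold higher. Cst3, the protease inhibitor cystatin C, is also made in quantity by other brain cells and stood at 425, 836 and 410.3 CPM in the bound libraries, against 317, 252, 162 and 169.7 CPM in the unbound libraries. Bound replicate 2 was near 2-fold the other bound libraries for Cst3, and the groups did not overlap (log2 1.31, SE 0.31, edgeR adjusted p = 0.0065).

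Of 4 innate sensing genes, 3 rose. Ly86, a partner of the Toll-like receptor homologue Cd180, was 3.83-fold higher (log2 1.94, SE 0.44, edgeR adjusted p = 0.0034). Cd14, a co-receptor for bacterial lipopolysaccharide, was called higher, but its 3.15 CPM in bound replicate 2 stood against 0.45 and 0.70 CPM in bound replicates 1 and 3 and 0.12 to 0.68 CPM in unbound libraries (log2 1.95, SE 0.73, edgeR adjusted p = 0.037). Tlr7, a sensor of single-stranded RNA, was 2.38-fold higher (log2 1.25, SE 0.36, edgeR adjusted p = 0.012). For Tlr7 bound replicate 3, at 2.06 CPM, lay inside the unbound range of 1.32 to 2.17 CPM. The calls for Cd14 and Tlr7 were lost without bound replicate 2. Tlr2, a sensor of bacterial lipoproteins, stood at 0.188, 0.48 and 0.612 CPM in the bound libraries, against 0.764, 0.865, 0.329 and 0.445 CPM in the unbound libraries. The groups overlapped and no call was made (log2 −0.50, SE 0.57, edgeR adjusted p = 0.47). It was the only one of the 39 genes for which bound replicate 2 was not the highest bound library.

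All 3 transcription factors rose. Spi1, which encodes the myeloid factor PU.1, stood at 2.24, 6.63 and 3.45 CPM in the bound libraries, against 0.97, 1.1, 0.775 and 0.593 CPM in the unbound libraries. Its groups did not overlap (log2 2.26, SE 0.38, edgeR adjusted p = 0.00040). Irf8, a partner of PU.1, was 2.27-fold higher (log2 1.18, SE 0.37, edgeR adjusted p = 0.017), with bound replicate 1 inside the unbound range. Sall1, a zinc-finger factor that maintains microglial identity, stood at 22.6, 39.7 and 29.8 CPM in the bound libraries, against 21.2, 21.7, 18.5 and 17.7 CPM in the unbound libraries. Its rise of 1.55-fold was the smallest among the 36 called genes (log2 0.63, SE 0.17, edgeR adjusted p = 0.0068), and bound replicate 1 exceeded unbound replicate 2 by less than 1 CPM. Of the remaining genes, Aif1, the calcium-binding protein IBA1, was 2.79-fold higher and Cd53, a tetraspanin of blood-lineage cells, 5.16-fold. Hpgds, a prostaglandin D synthase, stood at 2.84, 7.17 and 1.84 CPM in the bound libraries, against 2.76, 2.99, 1.69 and 1.53 CPM in the unbound libraries. Only bound replicate 2 was above the unbound libraries for Hpgds (log2 0.82, SE 0.43, edgeR adjusted p = 0.12).

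Cystatin C was the most abundant of the 39 in both groups. Per kilobase of merged exon, the mean level of Cst3 was 440.1 CPM in the bound group and 178 CPM in the unbound group. C1qb followed at 57.7 and 9.8 CPM per kilobase and Tyrobp at 42.6 and 7.4. Next in bound libraries came Fcer1g at 26.2, C1qc at 26.2 and Ctss at 25.6 CPM per kilobase, which did not differ beyond their spread. The same genes stood at 4.92, 4.5 and 5.27 CPM per kilobase in unbound libraries, with Lgmn above them there at 5.52. Ptprc was the lowest in both groups, at 0.0451 CPM per kilobase in bound and 0.0674 in unbound libraries.

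In summed level the microglia genes were highest in bound replicate 2, and bound replicates 1 and 3 also exceeded each unbound library. Summed over 38 genes, without the abundant Cst3, the level was 533, 1264 and 493 CPM in bound replicates 1 to 3, against 243, 219, 170 and 167 CPM in unbound replicates 1 to 4. These bound sums were 2.67, 6.33 and 2.47 times the unbound mean. Relative to the mean log2 level of the unbound libraries, the median of the 39 genes was 1.38, 2.56 and 1.17 in bound replicates 1, 2 and 3, where the median of all genes tested was −0.003, −0.008 and 0.002. Bound replicate 1 lay above the highest unbound library for 33 of 39 genes (40.6% of all genes tested), replicate 2 for 37 (40.7%) and replicate 3 for 35 (40.8%). Replicates 1 and 3 both did so for 32 of 39 genes (34.6%). Replicates 1 and 3 differed little from each other, with 17 of 39 genes higher in replicate 1 and a median ratio of 0.94.

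Bound replicate 2 held the highest bound level of 38 of the 39 genes, as it did for 29.8% of all genes tested. Its level divided by the mean of bound replicates 1 and 3 had a median of 2.58 over the 39 genes, with quartiles of 2.33 and 2.98 and a range from 1.20 for Tlr2 to 5.49 for Cd14. Over all genes tested that median was 0.97, and the 95th percentile was 2.03. A ratio above 1.5 was reached by 37 of the 39 genes and by 9.39% of all genes tested. The 2 others were Tlr2 and Lgmn, the second with a ratio of 1.41. Homeostatic genes had a median ratio of 2.78 and phagocytic genes of 2.42. Genes of GABAergic neurons summed to 6563, 6049 and 7940.0 CPM in bound replicates 1 to 3, against 582 to 731 CPM in unbound libraries, with replicate 2 the lowest bound library. What sets bound replicate 2 apart was not tested, and neither was from which cells the reads of the microglia genes came.

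**Figure D2:**
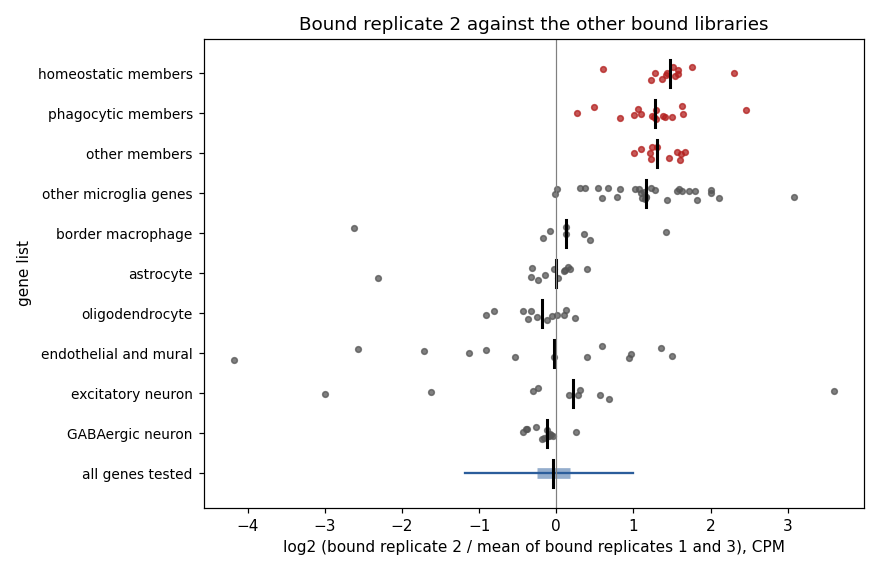
Ratio of CPM in bound replicate 2 to the mean of bound replicates 1 and 3, on a log2 axis, for tested genes of each list (points, black line at the median; ratios of 0 or with a denominator of 0 are not drawn) and for all genes tested (thick bar, quartiles; thin bar, 5th to 95th percentile). The 3 sets of members and the other microglia genes lie to the right, while neuronal and other glial lists centre near 0.

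Genes outside the 39 were ranked by the same ratio among genes called higher in bound libraries with a mean of at least 5 CPM there, predicted genes left out. Replicate 2 enters that mean and that call, so genes can be in the set through it alone, and the ranking is a description. Among the 15 highest were Dock8, Gngt2, Cd33, Vsir, Ncf1, Pld4, Hpgd, Pik3r5, Bin2, Lpcat2, Lair1, Pik3cg, Ikzf1 and Rab3il1. Dock8 and Cd33, known from leukocytes and microglia, had ratios of 4.31 and 3.53. Bound replicate 3 lay inside the unbound range for both, and without bound replicate 2 they stood at log2 0.42 (edgeR adjusted p = 0.37) and 0.32 (edgeR adjusted p = 0.23). Of the 15 genes, 6 lost their call without that library, and 9 did not. Ikzf1, a transcription factor of blood-lineage cells, stood at 6.85, 17.1 and 7.42 CPM in the bound libraries, against 4.73, 4.46, 2.51 and 2.67 CPM in the unbound libraries. For Ikzf1 bound replicates 1 and 3 were also above the unbound libraries. Pik3cg and its regulator Pik3r5, of the phosphoinositide 3-kinase of leukocytes, had ratios of 2.42 and 2.94.

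Without bound replicate 2, 30 of the 39 genes were called higher and none lower, where 29.1% of the 20117 genes tested were called higher and 29.7% lower. The median log2 fold change was 1.18. For C1qa it was 2.28 (edgeR adjusted p = 3.4e-06), for Tyrobp 1.91 (edgeR adjusted p = 0.00013), for Csf1r 1.19 (edgeR adjusted p = 0.00022) and for Cx3cr1 1.35 (edgeR adjusted p = 1.5e-05). Calls were lost for 6 genes, among them Itgb2 and Itgb5. Fcrls stood at log2 0.56 (edgeR adjusted p = 0.33) and Irf8 at 0.65 (edgeR adjusted p = 0.12). Cd14 stood at log2 0.63 (edgeR adjusted p = 0.45) and Tlr7 at log2 0.70 (edgeR adjusted p = 0.080). Slc2a5, with the largest rise when all libraries were used, stood at 1.94 without replicate 2, where C1qa, Trem2 and C1qb stood highest (2.28, 2.10 and 2.10). Ptprc moved to −1.35 and had no call (edgeR adjusted p = 0.060).

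**Figure D3:**
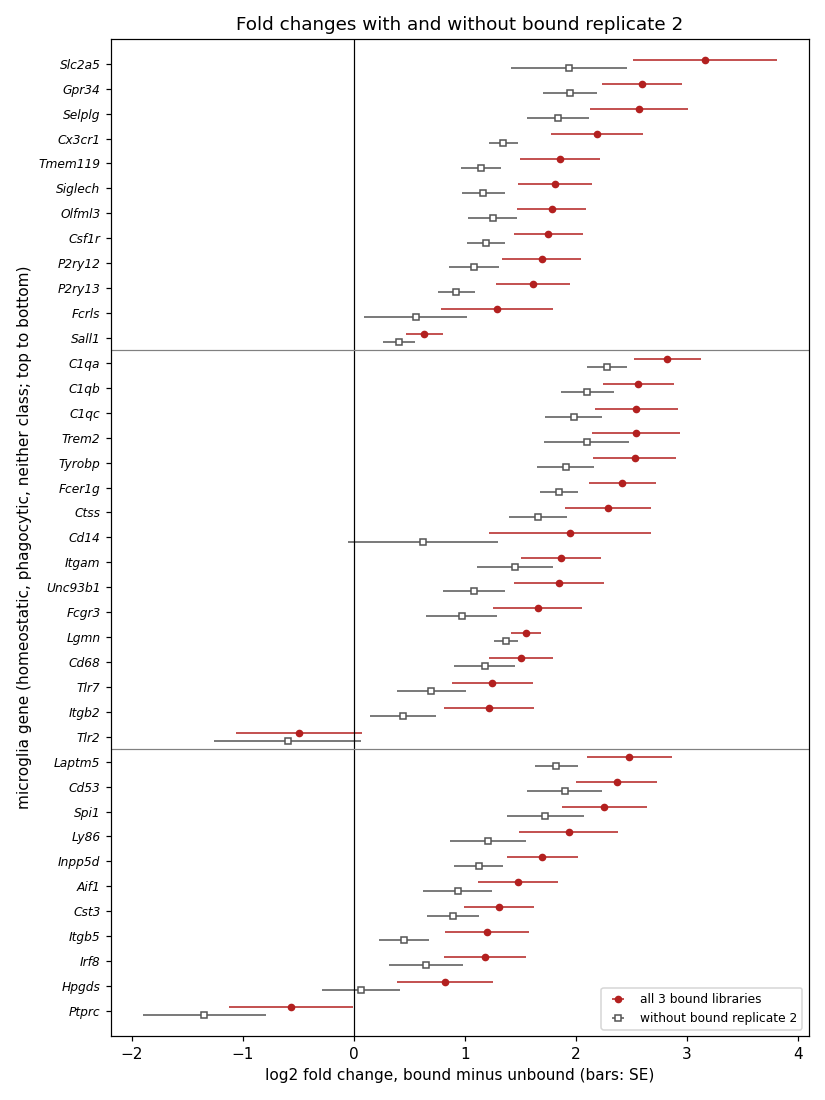
Log2 fold change (bound minus unbound) with its SE for each of the 39 genes, from all 3 bound libraries (filled) and without bound replicate 2 (open squares). The median is 1.81 with replicate 2 and 1.18 without it, and 36 and 30 genes are called higher.

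The homeostatic class held the 10 surface and secreted genes with Csf1r and Sall1, and the phagocytic class held the C1q chains, Trem2, Tyrobp, Fcer1g, Fcgr3, Itgam, Itgb2, Cd68, Ctss, Lgmn, Unc93b1, Cd14, Tlr2 and Tlr7. The lysosomal genes Laptm5 (log2 2.48) and Cst3 (1.31) and the innate sensing gene Ly86 (1.94) were among the genes in neither class. The homeostatic minus phagocytic difference in median was −0.11 on the log2 scale for the fitted fold changes, and −0.23, −0.37 and −0.23 in bound replicates 1 to 3 taken apart. All 12 homeostatic genes were called higher (31.0% of all genes tested), with a median log2 fold change of 1.80, and 15 of 16 phagocytic genes, all but Tlr2, with a median of 1.91. Without bound replicate 2, 11 of 12 homeostatic genes were called, with a median of 1.18, and 12 of 16 phagocytic genes, with a median of 1.41. By library, the homeostatic median relative to the unbound mean was 1.38, 2.54 and 1.15 in bound replicates 1 to 3, and the phagocytic median was 1.6, 2.91 and 1.38. The phagocytic median was thus the higher one in each bound library. Summed CPM of homeostatic genes divided by that of phagocytic genes was 0.84, 1.03 and 0.90 in bound replicates 1 to 3, against 1.28, 1.19, 1.39 and 1.35 in unbound replicates 1 to 4. These ratios did not overlap between groups. Narrower classes of 8 genes each set Cx3cr1, P2ry12, P2ry13, Tmem119, Sall1, Siglech, Gpr34 and Fcrls against Tyrobp, Trem2, the C1q chains, Cd68, Ctss and Lgmn. There the ratios were 0.62, 0.82 and 0.74 in bound and 1.17, 1.08, 1.35 and 1.26 in unbound libraries, and the class medians were 1.75 (homeostatic) and 2.54 (phagocytic).

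**Figure D4:**
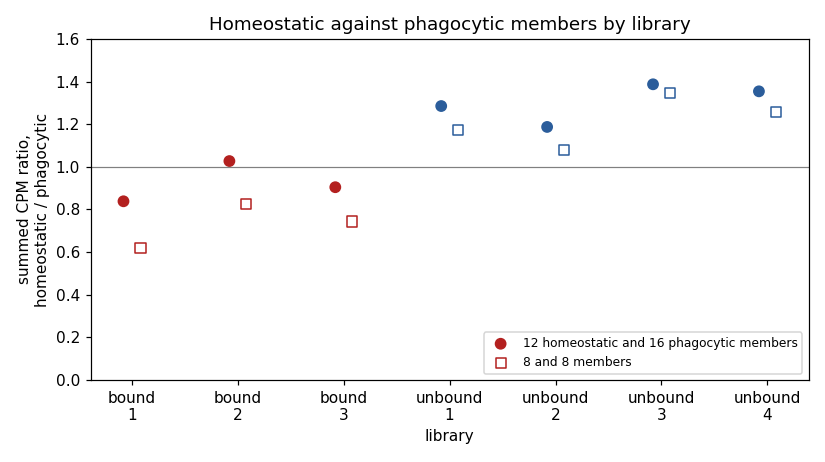
Summed CPM of homeostatic genes divided by summed CPM of phagocytic genes in each library (filled, 12 and 16 genes; open, 8 and 8 genes), bound libraries left of unbound libraries. In bound libraries the ratio is 0.84 to 1.03 with the wider classes, and in unbound libraries 1.19 to 1.39.

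Exon length moved with this difference. Merged exons had a median length of 3392.5 nucleotides in homeostatic and 1833.5 nucleotides in phagocytic genes. Among all coding genes tested, median log2 differences were 0.92 for lengths under 1000 nucleotides, 0.59 from 1000 to 2000, 0.17 from 2000 to 4000, −0.15 from 4000 to 8000 and −0.49 above. In the same steps the microglia genes had medians of 2.48 (2 genes), 2.12 (10 genes), 1.81 (15 genes), 1.75 (11 genes) and −0.56 (Ptprc alone). With a length trend removed from each library, the homeostatic median was 1.87 and the phagocytic median 1.82, so that their order turned round. For the narrower classes the homeostatic median stayed lower, at 1.58 against 2.05. With that correction 34 of the 39 genes were called higher, with a median of 1.78. Fcrls, Cst3 and Cd14 lost their calls there, and Hpgds gained one (edgeR adjusted p = 0.049).

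**Figure D5:**
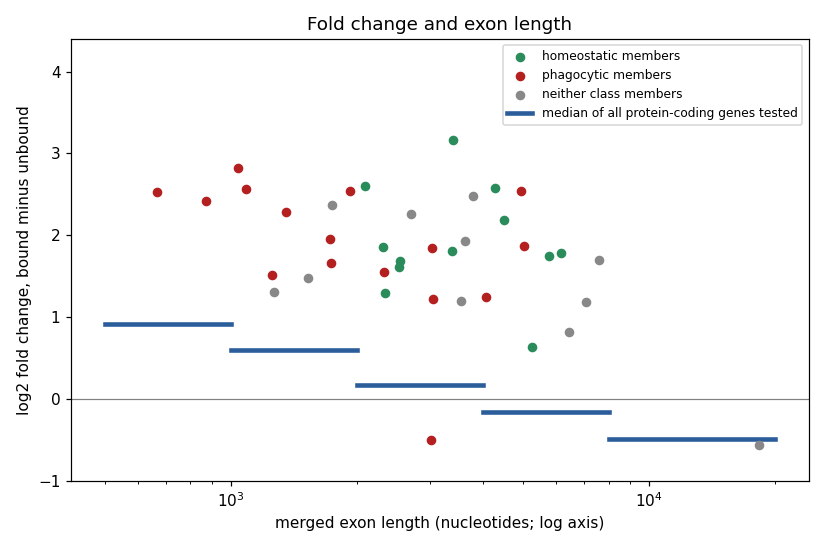
Log2 fold change (bound minus unbound) against merged exon length on a log axis for the 39 genes by class, with the median of all protein-coding genes tested in 5 length steps as bars (the first bar covers lengths under 1000 nucleotides, the last those from 8000). All but Tlr2 and Ptprc lie above the bar of their length.

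Of 4 ligands of microglial receptors, 2 were higher, 1 was lower and 1 had no call. Csf1, a ligand of Csf1r, was lower and stood at 6.11, 3.87 and 4.42 CPM in the bound libraries, against 24.5, 19.7, 17 and 14.7 CPM in the unbound libraries (log2 −1.98, SE 0.21, edgeR adjusted p = 1.2e-05). Il34, the other ligand, was higher and stood at 20.1, 18.4 and 25.7 CPM in the bound libraries, against 11.4, 8.79, 12.4 and 11.9 CPM in the unbound libraries (log2 0.94, SE 0.15, edgeR adjusted p = 0.00030). Bound replicate 2 was the lowest bound library for both ligands. Cd200, a neuronal ligand that restrains myeloid cells, rose by 1.40 on the log2 scale, and for it as for Il34 the bound libraries lay above all unbound libraries. Cx3cl1, which encodes fractalkine, stood at 228, 225 and 235 CPM in the bound libraries, against 215, 199, 230.3 and 222 CPM in the unbound libraries without a call (log2 0.08, SE 0.07, edgeR adjusted p = 0.30).

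Counts for other genes of the same pathways stand against 31.0% of all genes called higher and 30.7% called lower. Of 18 further genes of Csf1r and Trem2 signalling, 7 were higher and 2 lower (median log2 0.52), with Vav1, an exchange factor, at 2.48, Pik3cg at 1.71 and Apoe, a lipoprotein made mainly by astrocytes, at −1.32. Without bound replicate 2 the count was 3 higher and 2 lower. Of 13 further complement genes tested (of 14), 4 were higher and 5 lower (median −0.24). C4b and Cd46 were lower by 2.43 and 3.55 on the log2 scale and C1qbp, a mitochondrial protein named for C1q binding, rose by 0.80. Of 26 further genes of uptake and lysosome (of 27), 14 were higher and 5 lower (median 0.46). Psap and Ctsb, common to most cells, stood at 0.28 and 0.55, while the bridging and receptor genes Mfge8 and Axl stood at −2.95 and −3.16. Of 16 further genes of Toll-like receptor signalling (of 19), 2 were higher and 3 lower, with Tlr9 at 1.76 and Lbp at −4.16. Of 10 tested genes of fractalkine, CD200 and purine signalling (of 11), 4 were higher and 3 lower, with the adenosine receptor Adora3 at 2.19. Of 4 Fc receptor genes tested (of 6), 2 were higher, with Fcgr1 at 1.64 and Fcgr2b at 1.03, and 2 lower, with Fcer2a at −2.09 and Fcgrt at −1.12. Without bound replicate 2 the counts were 1 higher and 4 lower for Toll-like receptor signalling, 2 higher and 3 lower for fractalkine, CD200 and purine signalling and 1 higher and 2 lower for Fc receptors. Vav1, Adora3, Tlr9 and Fcgr2b lost their calls there (edgeR adjusted p = 0.063, 0.086, 0.057 and 0.16), while Pik3cg and Fcgr1 kept theirs. For Vav1 bound replicate 3, at 0.476 CPM, lay inside the unbound range of 0.211 to 0.584 CPM.

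Some genes listed for microglia or other myeloid cells did not have their excess in bound replicate 2. Of 16 further transcription factors of myeloid cells, 6 were higher and 6 lower (median −0.36), near the shares of all genes, and without bound replicate 2 the counts were 3 and 6, where 29.1% and 29.7% of all genes were called. Maf, a factor of macrophages that is also known from interneurons, stood at 69.7, 73 and 81.3 CPM in the bound libraries, against 15, 18.2, 13.1 and 12.5 CPM in the unbound libraries. Its ratio between bound replicate 2 and the mean of the other bound libraries was 0.968. Rgs10, a regulator of G-protein signalling, stood at 109.6, 129 and 147 CPM in the bound libraries, against 12.2, 9.07, 10.7 and 10.5 CPM in the unbound libraries. Igf1, a growth factor also known from interneurons, stood at 64.5, 57.3 and 69 CPM in the bound libraries, against 9.96, 14.2, 17.8 and 17.8 CPM in the unbound libraries. In these genes the bound libraries lay close together, far above the unbound libraries.

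Of 30 genes listed as other microglia markers, 21 were higher (31.0% of all genes) and 1 lower, with a median log2 fold change of 1.32, and bound replicate 2 was the highest bound library for 27. Golm1, a Golgi protein, was the lower one (−0.93). Without bound replicate 2, 11 were higher and 1 lower, with a median of 0.68, where 29.1% of all genes were called higher. Without the abundant Rgs10, their summed level was 152, 322 and 163 CPM in bound replicates 1 to 3, against 156, 131, 134 and 127 CPM in unbound replicates 1 to 4. Bound replicate 1 thus lay inside the unbound range.

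Lists of other macrophages and of blood cells were mostly without calls. Of 8 tested genes of border macrophages (of 11), the macrophages of vessels and meninges, none was higher and 2 were lower, and the summed level of the list was 6.64 to 11.3 CPM in bound and 8.57 to 11.4 CPM in unbound libraries. Mrc1, one of their defining genes, stood at 0.497, 1.41 and 2.09 CPM in the bound libraries, against 3.14, 1.59, 1.67 and 1.88 CPM in the unbound libraries. Cd163 and Lyve1, others of that kind, were at 0.18 and 0.29 CPM or less in each bound library. In unbound libraries they were at 0.543 to 1.47 and 0.517 to 1.05 CPM. Stab1, the most abundant gene of the list, went the other way without a call (log2 0.50, SE 0.23, edgeR adjusted p = 0.087). It stood at 4.06, 3.86 and 4.13 CPM in the bound libraries, against 2.09, 3.83, 2.68 and 2.77 CPM in the unbound libraries. Log2 fold changes of the tested genes ran from −3.16 to 0.91. Of genes of activated microglia, 1 of 10 tested (of 14) was higher, Igf1, and 3 were lower, and without Igf1 the list summed to 7.26, 12.3 and 8.55 CPM in bound libraries, against 24.2, 32.4, 28.1 and 28.3 CPM in unbound libraries. Lpl, among the lower ones at log2 −3.34, stood at 0.976, 2.26 and 2.22 CPM in bound libraries, against 13.5, 19.1, 20.8 and 19.9 CPM in unbound libraries. Lpl alone thus made up the larger part of these unbound sums. Il1b was called lower at log2 −4.51 (SE 1.20), but from few reads and with overlapping groups. It stood at 0.034, 0 and 0 CPM in bound libraries, against 0.029, 0.538, 0.399 and 0.346 CPM in unbound libraries. The monocyte and neutrophil list summed to 0.25 to 0.688 CPM in bound and 0.587 to 1.75 CPM in unbound libraries. The lymphocyte list summed to 0.103, 1.22 and 0.408 CPM in bound replicates 1 to 3, against 0.793 to 1.78 CPM in unbound libraries, with bound replicate 2 the highest bound library. S100a8, Ngp, Camp and Retnlg had no read in any bound library, where a count of 0 allows 3 counts, or 0.048 to 0.068 CPM per library (counting error only). Their unbound levels were also low, at 0.28, 0.12, 0.029 and 0.070 CPM or less. Plac8 and Chil3 of the same list went the other way. Plac8 stood at 0.464 CPM in bound replicate 2 and Chil3 at 0.137 CPM in bound replicate 1, against 0.059 and 0.023 CPM or less in any other library.

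The remaining lists of glia, vessels and blood were mostly lower in bound libraries. None of 12 astrocyte, 12 oligodendrocyte, 7 oligodendrocyte precursor, 14 endothelial and mural or 11 choroid plexus and meningeal genes was higher, and 11, 12, 7, 11 and 10 were lower (30.7% of all genes tested). Of 5 red cell genes 4 were lower, and the 5 summed to 1.76, 0.881 and 44.7 CPM in bound replicates 1 to 3, against 245 to 344 CPM in unbound libraries, with bound replicate 3 apart from the other bound libraries. The calls for Hbb-bs and Hba-a1 were lost in 10 and 7 of 15 alternatives. The summed astrocyte level was 298, 314 and 329 CPM in bound replicates 1 to 3, against 2300.1 to 3316 CPM in unbound libraries. Oligodendrocyte genes summed to 447, 358 and 378 CPM in bound replicates 1 to 3, against 1346 to 1547 CPM in unbound libraries. For endothelial and mural genes the sums were 29.2, 22.8 and 37.6 CPM in bound replicates 1 to 3, against 126 to 157 CPM in unbound libraries. In none of these 3 lists did bound replicate 2 differ from the other bound libraries in the way that the microglia genes did, with median ratios of 0.99, 0.88 and 0.98.

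Within the unbound group, 25 of the 39 genes were higher in both UBS libraries than in both UBGS libraries, as were 25.3% of all genes tested. Against the UBS pair alone, 27 of the 39 genes were called higher in bound libraries (median log2 1.61), and against the UBGS pair alone 33 (median 2.12). The sources used here do not say what the title series stand for.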

How the data were processed

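RNA was sequenced from 3 bound and 4 unbound libraries. The deposited table holds read counts per Ensembl gene ID, not normalized. The tools were STAR 2.5.3a and HTSeq and the build mm10, per the submitters' processing notes. The sources used here do not give the annotation release, the strand setting or the treatment of multiply matching reads. IDs were matched to GENCODE M21 (GRCm38, the mm10 assembly), which named 37693 of 39017.

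The test was that of edgeR 4.0.16 in R 4.3.3 (filterByExpr by group, TMM, robust quasi-likelihood test, no block) over all 19563 genes that passed, with Benjamini-Hochberg adjustment and a threshold of 0.05. CPM values use TMM-scaled library sizes, and log2 CPM uses a prior count of 2. SEs were derived from the F statistic. DESeq2 1.42.0 was an alternative. Simulated counts for the same 19563 genes and this design gave back 66 of 100 true changes of 1 on the log2 scale and 85 of 100 of size 2, beside 6 false calls. No other genes were changed, so far fewer differed than were called in the data. The simulated spread followed the trend over all genes and not that of each gene. These counts thus do not measure the power or the false calls of the real comparison.

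The members, lists, classes and the rule for named genes were chosen with earlier results of these data known. By that rule, values per library are given for 17 members fixed by name, for the extremes and for every member not called higher. From each other list the 2 most abundant and the 2 most changed genes may be named, and so may the receptors' ligands and the 15 highest genes of the ranking of bound replicate 2. Golm1, Plac8, Chil3 and the marker genes at 0 were named after their values were seen. Member counts ranged from 4 to 52213 reads, with 10 of 273 values under 20, so that counting error is small for most. Replicate pairs differed by 5.57 to 46.3 times the counting variance, so none looked like a repeated deposit. The value of 5.57 was that of the UBGS pair (unbound replicates 3 and 4), far closer to each other than any other pair. All other pairs were at 25 to 46.3. Promoter sequences are from RefSeq. A few genes of the lists are not reported here.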

Additional observations from a re-analysis of the deposited data

Results flagged for a closer look

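The summed level of the 14 genes listed for activated microglia was 34.2 CPM in unbound replicate 1, apart from 46.6, 45.9 and 46.0 CPM in unbound replicates 2 to 4. The gap made up a share of 0.947 of the group's range. Most of the sum came from Igf1 and Lpl, at 9.96 and 13.5 CPM in that library. Of 71 sets of 4 unbound values examined, this was the only one so far apart. Chance gives about 1 in 20 sets, so a single such set among 71 is no more than chance gives.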

How the results depend on the processing

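Each member fold change was recomputed under 15 alternatives (scaling by DESeq2 size factors or library totals, totals without mitochondrial genes and Gm42418, no filter, DESeq2, a length offset, either unbound pair alone and each library left out). All 36 called members stayed above 0 in each, and 26 stayed past the threshold in each. Calls were lost somewhere for Fcrls (10 alternatives), Cd14 (7), Itgb2 and Itgb5 (5 each), Irf8 and Tlr7 (3 each) and Aif1, Sall1, Fcgr3 and Cst3 (1 each). The cause was not tested. Hpgds, without a call in the main test, gained one with library totals, with the length offset and without bound replicate 3. Its log2 fold changes there were 1.27, 1.09 and 1.16 (edgeR adjusted p = 0.024, 0.049 and 0.029). The count of members called higher ranged from 30 to 36 with 1 library left out, lowest without bound replicate 2. With library totals the median over all genes was 0.43 in place of −0.01, calls became 9284 higher and 3704 lower in place of 6072 and 6004, and 37 members were called higher (median 2.25). The homeostatic minus phagocytic median, −0.11 with all libraries, was 0.057 with the length offset, −0.24 against the UBS pair and −0.31 against the UBGS pair, and −0.34 to −0.092 with 1 library left out. With narrow classes it was −0.79, and, in alternatives chosen after seeing the data, −0.48 with narrow classes and the length offset and −0.83 with narrow classes and without bound replicate 2. Among other named genes, directions turned for Cd47 (0.11) and Tnr (0.077) with library totals, for Tnr (0.26) and Mef2c (0.67) with the length offset, and for Mef2c (0.36) with library totals. No paired analysis was possible because the labels give no replicate numbers shared between bound and unbound libraries. Depth limits Tlr2, Cd14 and Ptprc, which had under 4 CPM in each library.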
